A study of Homo sapiens with 24 samples.

Results

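The comparison described here is that of SH-SY5Y cells kept for 24 h with TEPA, in 3 libraries, and SH-SY5Y cells left untreated for 24 h, also in 3 libraries. These 6 libraries were chosen by their labels among the 24 of the series, and neither group received interferon. SH-SY5Y is an established human neuroblastoma line of adrenergic, sympathetic neuron-like character. TEPA, a salt of a linear pentamine, is a polyamine-shaped chelator with high affinity for copper. The series as a whole asks how copper inside the tumour cell affects neuroblastoma cells. For reference, 5 further groups of 3 libraries of the same line are used: TEPA with interferon gamma (IFN) for 24 h, IFN alone for 24 h, dextran-catechin (DC, another copper chelator) for 24 h, copper chloride for 4 h, and untreated cells of the 4 h experiment. All groups share the single cell line, and the labels give neither doses nor the number of separate cultures behind each group's 3 libraries. The p-values therefore measure only the spread between these libraries, which may be technical.

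Cells take up copper mainly through the importer SLC31A1, hand it to chaperones, and export it through the pumps ATP7A and ATP7B. Zinc is moved by the SLC39 family, which brings it into the cytosol, and the SLC30 family, which removes it. The transcription factor MTF1 senses zinc, and copper by displacing zinc from its binding sites. When metal is in excess it turns on metallothioneins, small metal-binding proteins, and the zinc exporter SLC30A1 through short DNA motifs called metal response elements. The tumour suppressor p53, which is wild type in SH-SY5Y, turns on the cell cycle inhibitor CDKN1A, DNA repair genes and death receptors under many kinds of stress.

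With TEPA, 17 of 50 tested p53 target genes were higher, the zinc importer gene SLC39A10 was higher, and the zinc exporter gene SLC30A1 was lower. Of 14654 genes tested with edgeR's quasi-likelihood test, 155 were called, with a p under 0.05 after Benjamini-Hochberg adjustment, which is 1.06% of all tested genes. Of these, 76 were higher and 79 lower with TEPA (0.519% and 0.539% of all tested genes), and 22 and 12 changed at least 2-fold. With the replicate number as a block in a fit of the 6 libraries alone, 247 genes were called (1.78% of the genes tested there), 106 higher and 141 lower. In a fit of these 6 libraries without the block, 0 were called, with 1409 genes at an unadjusted p under 0.05, while DESeq2 and limma-voom on all 24 libraries called 374 and 176.

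The libraries held 28082355 to 35372442 counts with TEPA and 29583302 to 34922165 counts untreated. TEPA library 2 stood apart from the other 5 in its balance of genes rich and poor in G and C. Genes with over 0.6 of their bases G or C were set against those with under 0.4, by their median log2 level relative to all libraries, and the difference was -1.03, 0.64 and -0.78 in TEPA libraries 1 to 3, against -0.97, -0.37 and -0.79 in untreated libraries 1 to 3. Without TEPA library 2, 127 genes were called, 86 higher and 41 lower, so that the calls were not evenly divided between directions in that fit. Without TEPA library 1 or 3 there were 82 and 63 calls, and without untreated library 1 or 3 there were 61 and 72. With trends over GC content removed from every library, 1186 genes were called, 530 higher and 656 lower (8.09%, 3.62% and 4.48% of all tested genes). The line's own markers were present: 10 adrenergic neuroblastoma markers summed to 1585 to 1853 CPM (counts scaled to a common library total) with TEPA and 1522 to 1619 CPM untreated. Of the markers of other cell types, only SOX10 of Schwann cells and CD3E of T cells were at 0 in all 6 libraries. Others were well expressed. The 10 markers of fibroblasts, mesenchyme and endothelium summed to 550 to 674 CPM with TEPA and 524 to 605 CPM untreated. The 5 Schwann cell markers summed to 57.9 to 66.8 CPM with TEPA and 60.2 to 66.8 CPM untreated. Epithelium and leukocyte markers summed to at most 3.21 CPM. None of the 13 tested markers of Schwann cells, mesenchyme and endothelium, epithelium or leukocytes was called.

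**Figure D1:**
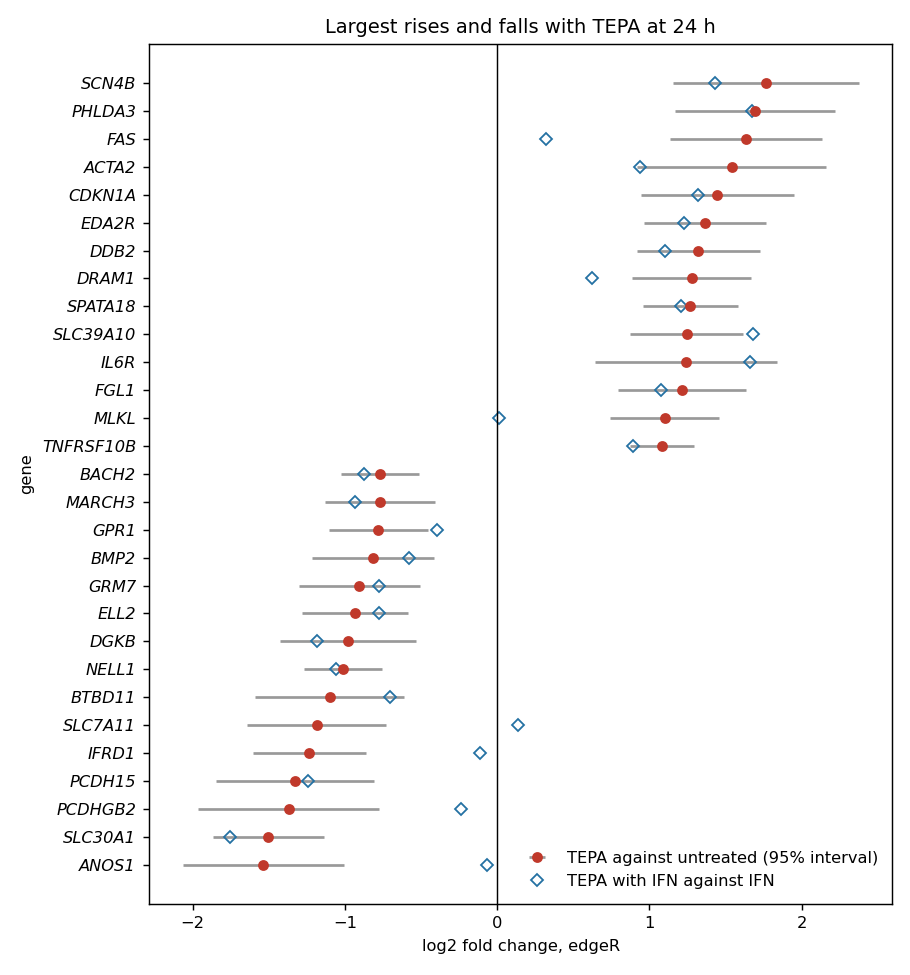
Log2 fold change, on the horizontal axis, of 14 of the called genes that rose most and the 15 that fell most with TEPA, 1 gene per row. Filled points with 95% intervals from the edgeR fit are TEPA against untreated cells, and open diamonds are TEPA with IFN against IFN. Of the genes drawn, SCN4B leads the rises at 1.77 and ANOS1 the falls at -1.54, and the diamonds of FAS, MLKL, SLC7A11, IFRD1, PCDHGB2 and ANOS1 lie far nearer to 0 than their points.

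SLC30A1, which exports zinc across the plasma membrane, was lower with TEPA (chromosome 1, 211571568 to 211578742, minus strand, GRCh38 with GENCODE 29). SLC30A1 had 9.08, 6.18 and 9.92 CPM in TEPA libraries 1 to 3, against 24.8, 21.2 and 25.2 CPM in untreated libraries 1 to 3. Every TEPA library lay far below every untreated one. In bulk RNA, a lower level in all cells and a loss from some cells cannot be told apart. Its log2 fold change was -1.50 (SE 0.17, edgeR adjusted p = 0.000206), a fall of the level to 0.353 of the untreated one. SLC39A10, a zinc importer (chromosome 2, 195575977 to 195737702, plus strand), had 399, 285 and 395 CPM with TEPA, against 161, 136 and 158 CPM untreated. Its groups did not overlap either, and TEPA library 2 was the lowest of its group. SLC39A10 rose 2.37-fold, a log2 change of 1.25 (SE 0.18, adjusted p = 0.00131). Both genes were called in all 6 fits that left out 1 library. They were the only called members among the 20 tested zinc transporter genes of the SLC30 and SLC39 families and their relatives, of which 11 had positive and 9 negative fold changes. The median of these 20 was 0.05, against 0.02 for all tested genes.

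The same pair of genes moved with TEPA in the presence of IFN, in libraries that share none with the comparison above. SLC30A1 averaged 7.74 ± 0.76 CPM with TEPA and IFN and 26.1 ± 1.0 CPM with IFN (SD, n = 3 each), a log2 fold change of -1.75 (edgeR adjusted p = 7.55e-05). SLC39A10 averaged 268 ± 15.9 CPM with TEPA and IFN and 83.7 ± 11.8 CPM with IFN, a log2 fold change of 1.68 (adjusted p = 7.55e-05). The levels differed from those under the other chelator: the direct test of TEPA against DC gave -1.33 (SE 0.17, adjusted p = 0.000408) for SLC30A1 and 1.31 (SE 0.18, adjusted p = 0.000522) for SLC39A10, with means under DC of 21.1 ± 2.51 and 145 ± 19.9 CPM. Copper for 4 h, with its own controls and another time, gave 157 ± 33.4 CPM of SLC30A1 with copper and 26.7 ± 5.46 CPM in the untreated cells of that experiment, a log2 fold change of 2.56 (adjusted p = 1.27e-08). SLC39A10 had 66.8 ± 11.4 CPM with copper and 98.5 ± 28.8 CPM without, which did not pass the threshold (log2 fold change -0.56, adjusted p = 0.0702). Over all tested genes, TEPA against DC gave calls in 1.26% (0.587% higher, 0.676% lower) and copper in 5.86% (2.65% higher, 3.20% lower). With the replicate block in each comparison's own libraries 406 and 2547 genes were called, but pairing by number is uncertain there. In deviations from group means, TEPA library 1 correlated at 0.121 with DC library 1 and at 0.595 with another DC library. Copper library 2 correlated at 0.35 with untreated library 2 and at 0.499 with another untreated library. No test was made between the 4 h and the 24 h experiments. RNA counts do not measure metals, and whether SLC30A1 and SLC39A10 followed copper or zinc was not tested.

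Metallothionein transcripts were scarce in SH-SY5Y cells without added metal, so they are given as counts. MT2A had 4, 4 and 4 counts in TEPA libraries 1 to 3, against 6, 12 and 12 counts in untreated libraries 1 to 3. MT1X had 4, 1 and 0 counts with TEPA, against 7, 8 and 5 counts untreated. MT1F had 0, 1 and 0 counts with TEPA, against 3, 6 and 5 counts untreated. For MT2A and MT1F each TEPA library was below each untreated one also in CPM, and for MT1X TEPA library 1 overlapped untreated library 3 on that scale. Summed over the libraries and scaled for depth, the ratio of TEPA to untreated was 0.378 for MT2A (95% counting interval 0.176 to 0.759), 0.236 for MT1X (0.0692 to 0.648) and 0.0674 for MT1F (0.00159 to 0.443), and these intervals cover counting error only. Of the 6 tested genes among the metallothioneins and MTF1, 1 was called lower (MT1F, edgeR adjusted p = 0.0311) and 0 higher. MT1F passed the filter on low counts only through the copper libraries, with 173, 237 and 403 counts, and MT1F, MT1X and MT2A did not pass it in the fits of the 6 libraries alone, with or without the replicate block, so they have no value there. With no filter MT1F had an adjusted p of 0.0444. MT1F was not called in DESeq2 (adjusted p = 0.106) or limma-voom (0.0673), and its adjusted p without 1 library was 0.031 without TEPA library 2 and 0.0527 to 0.174 without any other. Neither MT2A (adjusted p = 0.572) nor MT1X (0.609) was called, though MT2A was called lower with GC trends removed (0.0125), and MTF1 itself had a log2 fold change of 0.04 (SE 0.09). With IFN present MT2A was more abundant and averaged 2.15 ± 0.73 CPM with TEPA and IFN and 8.16 ± 2.92 CPM with IFN, a called fall of 1.92 on the log2 scale (adjusted p = 0.0302). Copper for 4 h gave 398, 697 and 1351 counts of MT2A, against 4, 18 and 41 counts in the untreated cells of that experiment. Because the metallothionein genes are nearly identical copies, how reads divide among them is uncertain.

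The 250 bases before the RefSeq start (GRCh38.p14) of MT2A, SLC30A1 and SLC39A10 are shown because SLC30A1 and SLC39A10 moved in opposite directions and the metal response element is the known route from MTF1 to MT2A and SLC30A1. They were searched on both strands for the core of that element, written TGCACNC or TGCGCNC and shown in capitals, with no overlapping matches. All run 5′ to 3′ on the strand of the gene.
MT2A, chr16:56608334-56608583, plus strand: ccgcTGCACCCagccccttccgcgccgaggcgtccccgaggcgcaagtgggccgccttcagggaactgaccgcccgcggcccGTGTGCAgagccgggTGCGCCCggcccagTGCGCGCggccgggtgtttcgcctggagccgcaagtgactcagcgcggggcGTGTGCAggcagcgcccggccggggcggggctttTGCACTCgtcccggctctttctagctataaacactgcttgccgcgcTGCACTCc
SLC30A1, chr1:211579162-211579411, minus strand: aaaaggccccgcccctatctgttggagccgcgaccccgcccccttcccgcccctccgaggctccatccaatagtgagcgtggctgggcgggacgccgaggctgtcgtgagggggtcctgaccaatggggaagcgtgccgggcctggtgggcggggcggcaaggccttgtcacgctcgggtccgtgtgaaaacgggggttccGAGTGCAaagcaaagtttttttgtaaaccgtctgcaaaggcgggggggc
SLC39A10, chr2:195656708-195656957, plus strand: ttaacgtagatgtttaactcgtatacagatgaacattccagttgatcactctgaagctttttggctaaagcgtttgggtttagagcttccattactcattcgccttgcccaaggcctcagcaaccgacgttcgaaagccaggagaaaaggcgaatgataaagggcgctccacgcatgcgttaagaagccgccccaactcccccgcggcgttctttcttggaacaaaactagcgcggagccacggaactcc
The window held 7 matches in MT2A, 4 in MT1X (not printed), 1 in SLC30A1, 49 to 43 bases before the start, and 0 in SLC39A10 and MTF1. Of 27305 RefSeq promoter windows of this length, 24.7% held at least 1 match and 0.366% held at least 4, so a single match is common. The RefSeq start of SLC30A1 lies 419 bases upstream of the GENCODE 29 start of the gene, that of MT2A lies 385 bases downstream of it, and that of SLC39A10 lies 80981 bases downstream, inside the gene location given above. The window of SLC30A1 thus lies wholly upstream of its GENCODE start. The matches counted for each gene, also the 0 of SLC39A10 and the 1 of SLC30A1, therefore refer to the RefSeq start alone. Bases after that start were not searched, and whether MTF1 acts on SLC39A10 was not tested. A match is a stretch of letters and was not tested as a binding site.

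Genes for moving copper itself gave no calls in the main fit. Of 25 tested genes for copper uptake, export and chaperones, 0 were called in either direction, with a median log2 fold change of 0.06. Over all tested genes 1.06% were called, so 0 in a list of this size says little about these genes. SLC31A1 had 147, 116 and 141 CPM with TEPA, against 122, 117 and 116 CPM untreated, with overlap between the groups (log2 fold change 0.19, SE 0.09, edgeR adjusted p = 0.555). ATP7A had 423, 277 and 388 CPM with TEPA, against 294, 253 and 293 CPM untreated (log2 fold change 0.37, SE 0.17, adjusted p = 0.467). For both genes TEPA library 2 was the lowest of its group. ATP7A was called with the replicate block (adjusted p = 0.0455), and both were called with GC trends removed (0.000151 for ATP7A and 0.00208 for SLC31A1). With GC trends removed 1 gene of this list was called lower. CCS, the copper chaperone of the superoxide dismutase SOD1, had 0.66 (SE 0.69), and SOD1 had -0.05 (SE 0.12), neither called. Of 11 tested copper-dependent enzymes 0 were called, and 1 was called higher with the replicate block. Of 19 tested cytochrome c oxidase subunit and assembly genes 1 was higher: COX15, a heme A synthesis gene (chromosome 10, 99711844 to 99732100), at 159, 149 and 163 CPM with TEPA and 123, 126 and 124 CPM untreated. COX15 rose by 0.34 on the log2 scale (SE 0.07, adjusted p = 0.021) in groups that did not overlap, and it overlaps CUTC on the opposite strand, so that without a known strand setting reads of the 2 genes could be mixed.

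Iron and polyamine genes were examined because TEPA is a polyamine-shaped chelator. TFRC, the transferrin receptor that brings iron into cells, had 749.7, 554 and 759.9 CPM with TEPA, against 432, 393 and 439 CPM untreated. TFRC rose by 0.71 on the log2 scale (SE 0.16, edgeR adjusted p = 0.0397), and of the 6 fits without 1 library it was called only without TEPA library 2 (adjusted p = 0.00897, and 0.0688 to 0.106 in the others). It was the single call among 18 tested iron genes, where 1.06% of all tested genes were called. Of 22 tested polyamine genes 0 were called: SAT1, which acetylates spermidine and spermine, had 0.64 (SE 0.19, adjusted p = 0.121, but 0.0391 in DESeq2 and 0.00519 with GC trends removed) and ODC1, the first enzyme of polyamine synthesis, had 0.11 (SE 0.06, adjusted p = 0.563). With the replicate block, and also with GC trends removed, 1 polyamine gene was called lower. With IFN present both were called higher with TEPA, SAT1 at 0.81 (adjusted p = 0.0279) and ODC1 at 0.30 (adjusted p = 0.00592).

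**Figure D2:**
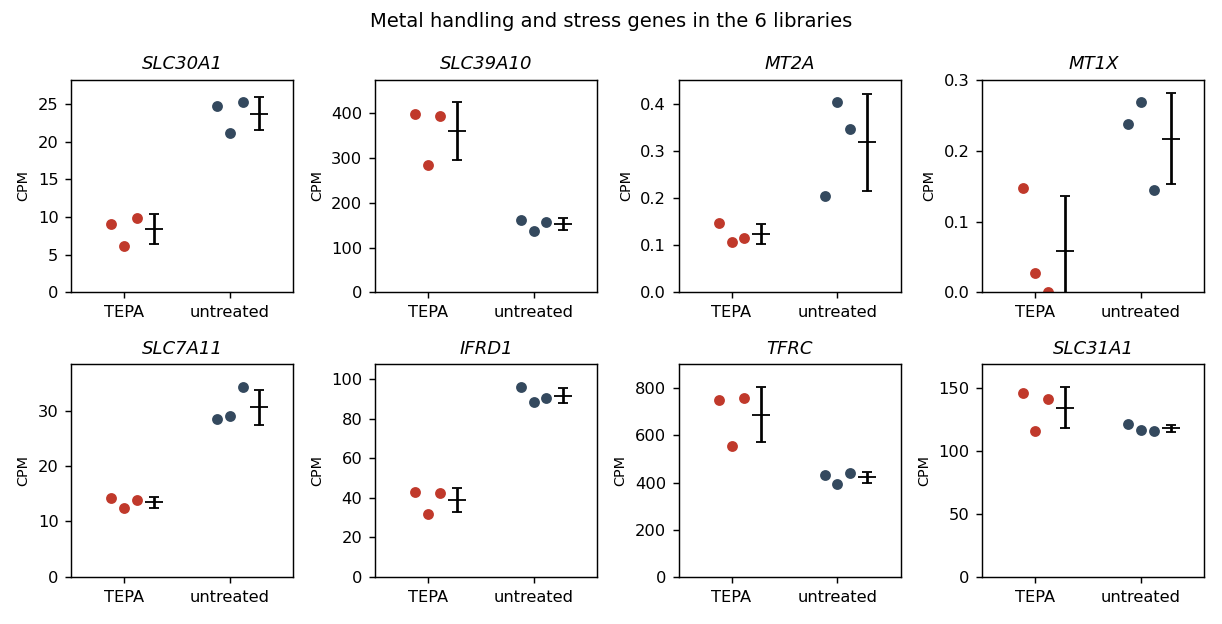
CPM, on a linear axis from 0, in the 3 TEPA libraries (left of each panel) and the 3 untreated libraries (right), with points for libraries 1 to 3 from left to right and the mean with SD as a bar beside them (the bar of MT1X is cut at 0). SLC30A1, SLC7A11 and IFRD1 lie lower with TEPA without overlap, SLC39A10 and TFRC lie higher without overlap, and SLC31A1 overlaps.

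The p53 target genes were the group with the most calls. Of 50 tested members of a list of p53 targets, 17 rose and 0 fell, and the median log2 fold change of all 50 was 0.64, against 0.02 for all tested genes. Positive fold changes were seen in 48 of the 50, and 30 had all 3 TEPA libraries above all 3 untreated ones, where 17.2% of all tested genes had groups without overlap in either direction. Leaving out 1 library left at least 12 calls, and 31 members were called higher and 1 lower with GC trends removed. The list was chosen with earlier results of these data known, so its direction is no independent evidence.

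CDKN1A, the p21 inhibitor of cyclin-dependent kinases (chromosome 6, 36676460 to 36687339, plus strand), had 54.5, 81.9 and 66.9 CPM in TEPA libraries 1 to 3, against 19.9, 30.3 and 24.5 CPM in untreated libraries 1 to 3. The groups stood apart, and within each the second library was the highest. CDKN1A rose 2.72-fold (log2 fold change 1.45, SE 0.24, edgeR adjusted p = 0.00388). BTG2, another antiproliferative target, had 40.7, 33.1 and 46.2 CPM with TEPA, against 24.4, 15.6 and 17.9 CPM untreated (log2 fold change 1.05, SE 0.15, adjusted p = 0.00132). PHLDA3, which restrains AKT signalling, had 6.28, 8.20 and 7.95 CPM with TEPA, against 2.24, 2.52 and 2.17 CPM untreated. It rose 3.24-fold, again in all 3 libraries (adjusted p = 0.00147).

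Of the called p53 targets, 4 encode receptors of the tumour necrosis factor family. TNFRSF10B, a receptor of the death ligand TRAIL (chromosome 8, 23020133 to 23069179), had 79.6, 84.5 and 94.4 CPM with TEPA, against 36.5, 45.8 and 39.9 CPM untreated. It rose 2.12-fold with the smallest adjusted p of the named genes (log2 fold change 1.08, SE 0.10, edgeR adjusted p = 2.36e-05). FAS, the receptor of FAS ligand (chromosome 10, 88990582 to 89015785, plus strand), had 6.84, 3.77 and 6.38 CPM with TEPA, against 1.63, 1.88 and 1.94 CPM untreated. TEPA library 2 was the lowest of its group and still above every untreated library (log2 fold change 1.63, SE 0.24, adjusted p = 0.00131). EDA2R, a receptor of ectodysplasin A2, had a log2 fold change of 1.36 (SE 0.19) from 15.7, 11.2 and 16.3 CPM with TEPA, against 4.82, 5.91 and 6.05 CPM untreated. TNFRSF10A, the other TRAIL death receptor, had 1.55 (SE 0.36, adjusted p = 0.0454), but was called only without TEPA library 1 (0.0358) among the fits without 1 library (0.0805 to 0.219 in the others), and had an adjusted p of 0.0515 with the replicate block. ACTA2, a smooth muscle actin gene that is no member of the list, overlaps FAS on the opposite strand and rose as well, with 6.58, 11.7 and 8.21 CPM with TEPA, against 2.55, 3.46 and 3.10 CPM untreated. The counting of strands is not given in the sources used here, so reads of FAS and ACTA2 cannot be told apart with certainty. ACTA2 lost its call without untreated library 1 or 3 or TEPA library 2 (adjusted p = 0.097, 0.0688 and 0.0633).

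Genes of DNA repair and of organelle upkeep were among the other called p53 targets. DDB2, which recognises ultraviolet damage, had 34.4, 46.7 and 43.2 CPM with TEPA, against 14.2, 19.0 and 16.5 CPM untreated (log2 fold change 1.32, SE 0.19, edgeR adjusted p = 0.00131). SPATA18, a regulator of mitochondrial quality, had 16.9, 12.7 and 17.8 CPM with TEPA, against 6.59, 6.51 and 6.57 CPM untreated. The 3 untreated values of SPATA18 differed by little, and all TEPA values lay well above them (log2 fold change 1.27, SE 0.15, adjusted p = 0.000206). DRAM1, a lysosomal protein linked to autophagy, had 1.28 (SE 0.19, adjusted p = 0.00134). The translesion polymerase POLH rose by 0.59 (SE 0.09), the ribosomal protein paralogue RPS27L by 0.83 (SE 0.16) and CYFIP2 by 0.55 (SE 0.08) on the log2 scale. SESN1 (0.74), the nuclease AEN (0.67), CMBL (0.42) and the damage sensor XPC (0.39) were also called, each losing its call in 3 to 5 of the 6 leave-one-out fits, at an adjusted p of at most 0.0939 for SESN1, 0.122 for AEN, 0.111 for CMBL and 0.083 for XPC. SESN1 was then called only without TEPA library 2, XPC only without TEPA library 1, AEN without untreated library 2 or TEPA library 1, and CMBL without untreated library 1 or TEPA library 1 or 2.

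MDM2, a p53 target that in turn restrains p53, was not called. MDM2 encodes a ubiquitin ligase and had 325, 235 and 335 CPM with TEPA, against 205, 194 and 208 CPM untreated. The groups of MDM2 did not overlap, with TEPA library 2 nearest to the untreated ones, and its log2 fold change was 0.56 (SE 0.15, edgeR adjusted p = 0.0866). MDM2 was called with the replicate block (adjusted p = 0.0186), with GC trends removed (9.19e-07) and in DESeq2 (0.0143). Among the edgeR fits without 1 library it was called only without TEPA library 2 (adjusted p = 0.0134, and 0.145 to 0.231 in the others). Lists of cell death and cell cycle genes held no calls, where 1.06% of all tested genes were called. Of 11 tested caspase genes, 16 BCL2 family genes, 40 DNA replication genes and 34 mitosis genes, 0 were called. With the replicate block 1 caspase gene was called lower. With GC trends removed 1 caspase gene was lower, 1 BCL2 family gene was higher and 1 lower, and 2 mitosis genes were higher and 1 lower. RRM2, a subunit of ribonucleotide reductase, had -0.20 (SE 0.14) and the centromere protein gene CENPF -0.18 (SE 0.14).

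**Figure D3:**
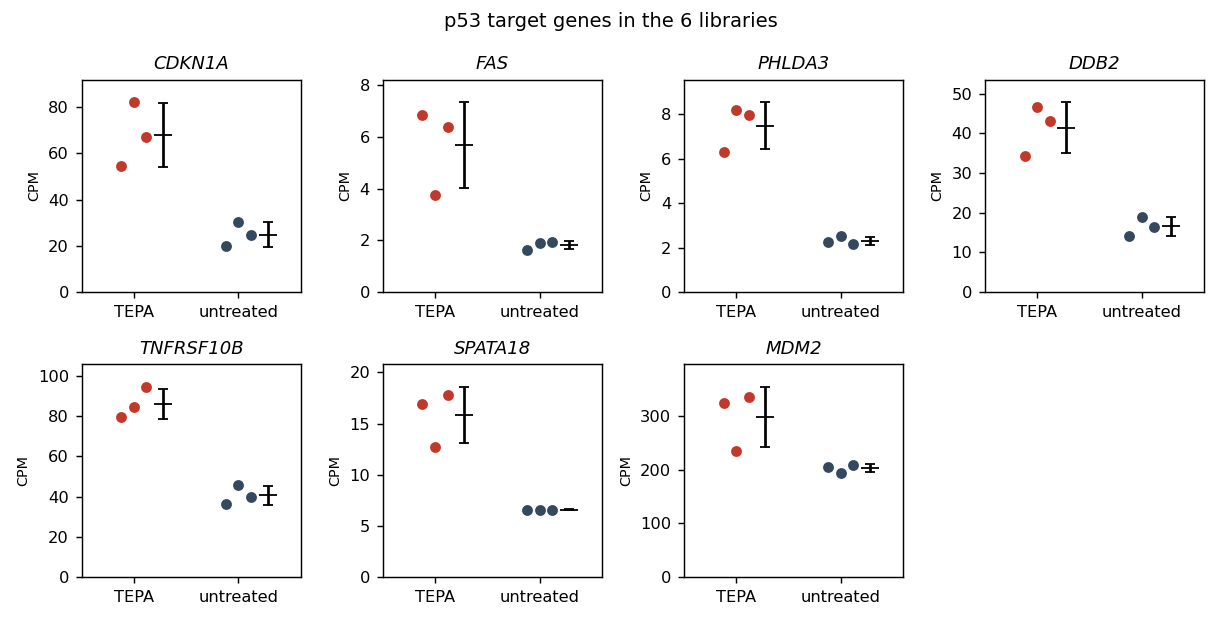
CPM of 6 called p53 target genes and of MDM2, on linear axes from 0, in the 3 TEPA libraries (left of each panel) and the 3 untreated libraries (right), with the mean and SD as a bar. In CDKN1A, FAS, PHLDA3, DDB2, TNFRSF10B and SPATA18 the TEPA libraries lie wholly above the untreated ones, as they do by a smaller fold in MDM2, which was not called.

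Of 27 tested genes for adrenergic core transcription factors, 2 rose and 0 fell, and with the replicate block 4 rose and 1 fell. TBX3, a T-box factor, was among the 2, with 115, 93.8 and 118 CPM with TEPA, against 73.2, 79.3 and 73.8 CPM untreated (log2 fold change 0.53, SE 0.10, edgeR adjusted p = 0.0124). TBX3 had an adjusted p of 0.0659 with GC trends removed. MYCN, the oncogene amplified in many neuroblastomas, had 0.30 (SE 0.22) and was not called.

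Among the other genes with the largest changes, SCN4B rose and ANOS1, NELL1, BACH2 and ELL2 fell. SCN4B, a beta subunit of sodium channels (chromosome 11, 118133377 to 118152888, minus strand), had 3.82, 3.58 and 4.93 CPM with TEPA, against 1.29, 1.14 and 1.19 CPM untreated. It rose 3.40-fold without overlap (edgeR adjusted p = 0.00363) and was the single call among 32 tested genes of voltage-gated channels, where the replicate block gave 1 higher and 1 lower. ANOS1, a matrix protein that guides olfactory and gonadotropin neurons, had 1.21, 0.637 and 0.841 CPM with TEPA, against 2.51, 2.28 and 2.95 CPM untreated (log2 fold change -1.54, SE 0.25, adjusted p = 0.00363). NELL1, a secreted growth-regulating protein, had 5.40, 5.44 and 5.10 CPM with TEPA, against 11.1, 9.63 and 11.5 CPM untreated. The TEPA values of NELL1 were close together, and its level fell by 50.5% (log2 fold change -1.02, SE 0.12, adjusted p = 0.000247). BACH2, a transcriptional repressor, had 40.4, 33.9 and 35.4 CPM with TEPA, against 67.6, 54.6 and 64.5 CPM untreated (-0.77, SE 0.12), and ELL2, an elongation factor of RNA polymerase II, had 6.43, 6.37 and 6.21 CPM with TEPA, against 12.3, 12.1 and 11.9 CPM untreated (-0.93, SE 0.17).

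The other named falls were less firm. PCDH15, a protocadherin of hair cells, fell by 1.33 on the log2 scale (SE 0.25, edgeR adjusted p = 0.00958), with 0.0527 without untreated library 3 and 0.0503 with the replicate block. PCDHGB2 had -1.37 (adjusted p = 0.023) and lost its call without any 1 of the 6 libraries (0.0569 to 0.089), as did the growth factor gene BMP2 at -0.82 (adjusted p = 0.0454, and 0.116 to 0.192 without 1 library). PCDHGB2 shares exons with the other gamma protocadherins, so its reads may be divided among them. BTBD11 at -1.10 was called only without untreated library 2 or TEPA library 1 (adjusted p = 0.0135 and 0.0424, and up to 0.122 in the others), and the metabotropic glutamate receptor GRM7 at -0.90 only without untreated library 2 (0.00866, and up to 0.125). The diacylglycerol kinase DGKB at -0.98 was called only without untreated library 2 (0.0487, and up to 0.101) and the ubiquitin ligase MARCH3 at -0.77 only without untreated library 1 (0.0469, and up to 0.147). The chemerin receptor GPR1 at -0.78 lost its call without untreated library 1 or TEPA library 3 (0.0731 and 0.0804). With the replicate block BMP2 (adjusted p = 0.0734), BTBD11 (0.064), GRM7 (0.0508) and MARCH3 (0.0918) were not called.

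SLC7A11, which imports cystine for glutathione synthesis (chromosome 4, 138164097 to 138242349, minus strand), was lower with TEPA. It had 14.2, 12.4 and 13.8 CPM with TEPA, against 28.6, 29.0 and 34.2 CPM untreated, without overlap (log2 fold change -1.19, SE 0.22, edgeR adjusted p = 0.00917). IFRD1, a transcriptional coregulator of stressed and differentiating cells, had 42.9, 32.0 and 42.3 CPM with TEPA, against 96.1, 88.7 and 90.7 CPM untreated (log2 fold change -1.23, SE 0.18, adjusted p = 0.00131). All 3 TEPA libraries of IFRD1 lay far below the lowest untreated one. SLC7A11 is a target of both ATF4 and NRF2, and it was the single call among 33 tested genes of the integrated stress response and among 27 tested NRF2 and oxidative stress genes. With the replicate block 1 stress response gene was higher and 3 were lower, and 2 NRF2 and oxidative stress genes were lower. Under DC SLC7A11 averaged 56.4 ± 7.65 CPM, and the direct test of TEPA against DC gave -2.07 (SE 0.22, adjusted p = 8.32e-05). Copper for 4 h gave 331 ± 106 CPM of SLC7A11 with copper and 27.5 ± 9.40 CPM without (log2 fold change 3.59). In that comparison 31 of the 33 stress response genes were called higher, against 2.65% of all tested genes. Of 23 tested heat shock genes and 20 tested chaperones of the endoplasmic reticulum 0 were called with TEPA, HSPA8 having -0.33 (SE 0.16, adjusted p = 0.526, and 0.0488 with the replicate block) and HSP90B1 -0.25 (SE 0.15). Likewise 0 of 28 tested hypoxia genes and 30 autophagy and lysosome genes were called. The same held for 24 genes of catecholamine synthesis and granules and 29 genes of synaptic vesicle fusion, against 1.06% of all tested genes. With the replicate block 3 of the 24 catecholamine and granule genes were called lower, and 1 heat shock gene was called higher and 1 lower. With GC trends removed, where 8.09% of all tested genes were called, 3 catecholamine and granule genes were lower. In that fit 3 hypoxia genes, 4 synaptic vesicle genes, 1 autophagy and lysosome gene and 1 endoplasmic reticulum chaperone were also lower. Of the heat shock genes 1 was higher and 1 lower there.

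A few lipid synthesis genes were lower, in small steps. Of 24 tested cholesterol synthesis genes 0 rose and 3 fell, with a median of -0.20, and of 18 tested fatty acid synthesis genes 0 rose and 2 fell, with a median of -0.22, against 0.02 for all tested genes. SCD, the desaturase that makes monounsaturated fatty acids, had 588, 547 and 584 CPM with TEPA, against 801, 734 and 809 CPM untreated. The groups of SCD did not overlap (log2 fold change -0.45, SE 0.07, edgeR adjusted p = 0.00221), and the call held in all 6 fits without 1 library. ACACA (-0.35), which makes malonyl-CoA, and ACAT2 (-0.36) and FDFT1 (-0.39) of cholesterol synthesis were also called, and lost their calls in 4 or 5 of the 6 leave-one-out fits, reaching an adjusted p of 0.164, 0.091 and 0.0787. Of these fits, ACACA and FDFT1 were called without untreated library 2, FDFT1 also without TEPA library 1, and ACAT2 without untreated library 3. With the block, 9 cholesterol synthesis and 3 fatty acid synthesis genes fell, and with GC trends removed 13 and 10 fell, none rising.

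**Figure D4:**
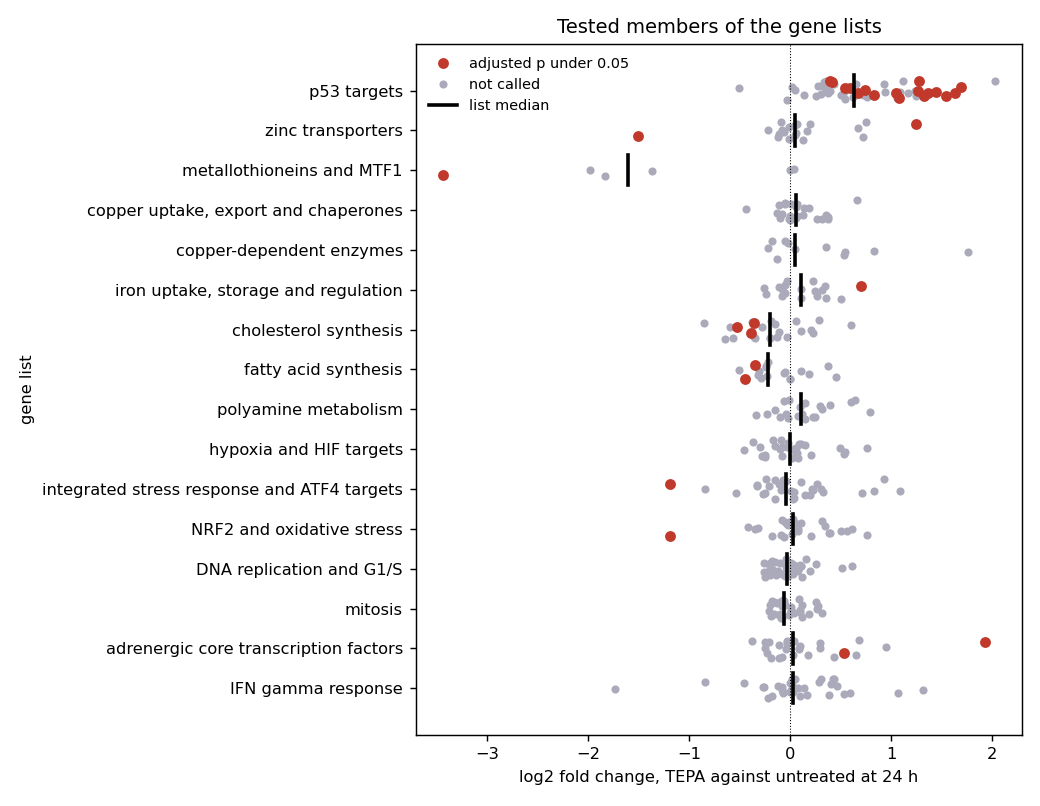
Log2 fold change of TEPA against untreated cells, on the horizontal axis, of every tested member of 16 gene lists, 1 list per row, with called genes as large red points, others as small grey points and the list median as a black bar. The p53 list has its median at 0.64 and 17 red points to the right of 0, and the other lists shown have at most 3 red points.

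Immune genes gave few calls without IFN. FGL1, a ligand of the inhibitory receptor LAG3 (chromosome 8, 17864380 to 17910365), had 5.92, 3.98 and 6.73 CPM with TEPA, against 2.34, 2.38 and 2.43 CPM untreated, and rose 2.32-fold without overlap (edgeR adjusted p = 0.00363). It was the single call among 11 tested checkpoint ligands, and CD274, which encodes PD-L1, had -0.27 (SE 0.33, adjusted p = 0.855). MLKL, the executioner of necroptosis, had 3.23, 3.16 and 3.10 CPM with TEPA, against 1.76, 1.51 and 1.16 CPM untreated (log2 fold change 1.10, SE 0.17, adjusted p = 0.00222, and 0.0533 with the replicate block). IL6R, the receptor of interleukin 6, had 6.28, 3.66 and 4.84 CPM with TEPA, against 1.97, 2.22 and 2.05 CPM untreated (1.24, SE 0.28, adjusted p = 0.0397), and among the fits without 1 library was called only without TEPA library 2 (0.0265, and 0.0936 to 0.161 in the others). Of 35 tested genes of the IFN gamma response and 20 of MHC class I presentation 0 were called, against 1.06% of all tested genes. Of 29 tested immediate early genes 2 rose, BTG2 and the phosphatase gene DUSP4, the second at 0.39 (SE 0.09, adjusted p = 0.0401), called only without untreated library 2 (0.0413) among the fits without 1 library (up to 0.118) and with an adjusted p of 0.0612 with GC trends removed.

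The same measure in separate libraries came from TEPA with IFN against IFN alone, which share no library with the 6 above. There 279 genes were called (1.90% of all tested genes), 111 higher and 168 lower (0.757% and 1.15%). Of the 155 genes called without IFN, 94 were also called with IFN, all in the same direction, which is 60.6% of the 155 and 33.7% of the 279. Of the 155, 154 had the same sign. The 76 higher genes had a median log2 fold change of 0.65 without IFN and 0.55 with IFN, and the 79 lower genes had -0.54 and -0.47. Of the 50 p53 targets 16 rose and 0 fell with IFN, with a median of 0.52. CDKN1A averaged 88.9 ± 13.4 CPM with TEPA and IFN and 35.6 ± 4.27 CPM with IFN (SD, n = 3 each), a log2 fold change of 1.32 (edgeR adjusted p = 0.00544).

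A few of the genes with the largest changes had fold changes far nearer to 0 in the presence of IFN. MLKL averaged 64.3 ± 6.39 CPM with TEPA and IFN and 63.8 ± 10.3 CPM with IFN, and FAS 17.3 ± 1.29 and 13.9 ± 2.72 CPM (SD, n = 3 each), so that both stood well above their levels without IFN in both groups. IFRD1 averaged 95.5 ± 14.3 CPM with TEPA and IFN and 103 ± 8.42 CPM with IFN, SLC7A11 30.3 ± 3.96 and 27.5 ± 3.74 CPM, and ANOS1 1.51 ± 0.16 and 1.58 ± 0.23 CPM. The edgeR test of the difference between the TEPA effects with and without IFN gave unadjusted p of 0.000113 for MLKL and 0.000231 for IFRD1. It gave 0.000352 for SLC7A11, 0.000548 for ANOS1, 0.000671 for FAS and 0.0103 for PCDHGB2. These genes were picked for that difference, so small values follow in part from the choice. None of these passed adjustment over all genes, where 0 genes were called by edgeR, DESeq2 or limma-voom (205 genes at an unadjusted p under 0.05 in edgeR). With GC trends removed 6 genes were called.

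**Figure D5:**
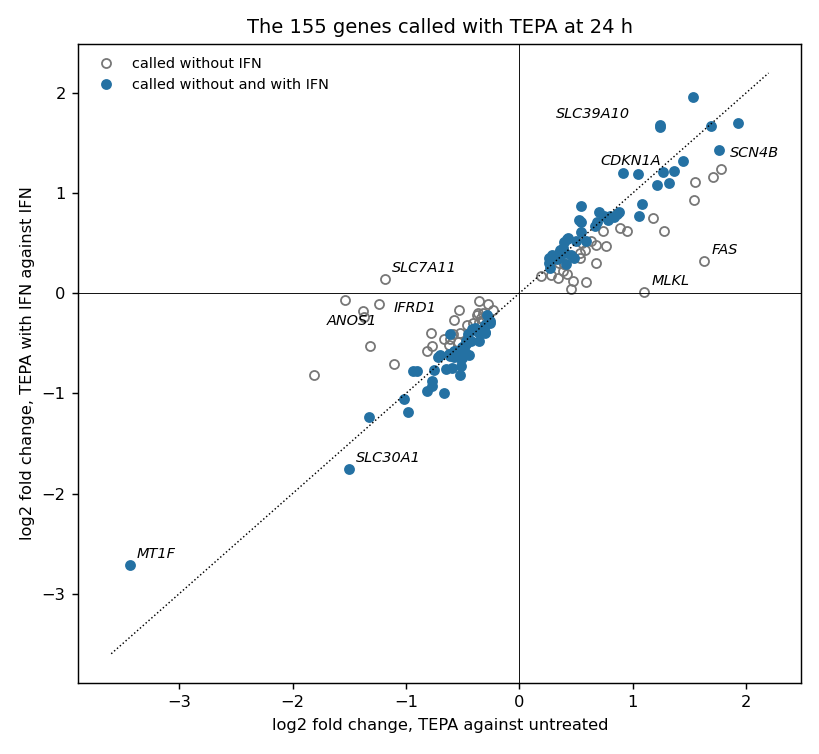
Log2 fold change of the 155 genes called with TEPA, in TEPA against untreated cells on the horizontal axis and in TEPA with IFN against IFN on the vertical axis, 1 point per gene, with filled points for the 94 called in both and a dotted line of equal change. All but 1 point lie in the quadrants of equal sign. MLKL, SLC7A11, IFRD1 and ANOS1 lie near a vertical value of 0, and FAS lies at 0.32.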

How the data were processed

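RNA of 24 SH-SY5Y libraries was sequenced in 8 groups of 3. Extraction was by spin column and library construction with a stranded kit for mRNA, per the labels' protocols. The deposited values are raw read counts per gene symbol for 26485 genes, as 1 table of all libraries and 1 list per library, and the lists of all 24 libraries equal their columns. Alignment and counting tools listed in the submitters' processing notes are STAR 2.5a and RSEM 1.2.31, with build hg38, and the annotation, strand setting and filters are not given in the sources used here. Reads of overlapping genes can therefore be mixed, which concerns FAS and ACTA2, COX15 and CUTC, IFRD1 and LSMEM1, SLC7A11 and its antisense gene, and opposite-strand or same-strand neighbours of TNFRSF10B, POLH, RPS27L, CYFIP2, XPC, ACAT2, ATP7A, SLC31A1, CCS and HSP90B1.

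In R 4.3.3 with edgeR 4.0.16, filterByExpr at a count minimum of 10 left 14654 genes of the deposited counts, and TMM factors scaled the libraries. All 24 libraries entered a single quasi-likelihood fit in edgeR with a mean for each group (16 residual degrees of freedom). Comparisons are contrasts between these means, a call is a p under 0.05 after Benjamini-Hochberg adjustment over all tested genes, and SE is that of the fit. CPM are counts relative to the TMM-scaled library total, and library totals limit precision for genes of few counts. Unless stated, the replicate block refers to the fit of a comparison's libraries alone. Alternatives used DESeq2 1.42.0, limma-voom (limma 3.58.1), other scaling, no filter, the replicate block, removal of GC trends with a spline of 5 degrees of freedom, and leaving out each library. The test scripts were tested on simulated data.

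Locations and GC content come from GENCODE 29, which matched 23899 of 26485 symbols (90.2%). Promoter sequences are RefSeq's (GRCh38.p14), found for 5 of 8 genes looked up.

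TEPA and untreated libraries carry the same replicate numbers in the labels, and the labels state no shared culture or day. Deviations of same-numbered libraries from their group means correlated at 0.363, 0.575 and 0.232. TEPA libraries 1 to 3 correlated with a differently numbered untreated library at up to 0.181, -0.256 and 0.267. Library 3 thus matched another number slightly better, and pairing by number is uncertain. The fit of all 24 libraries behind the main results used no block, and the fits with the replicate block are given as alternatives.

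Genes were named by rule: the 15 largest rises and falls among called genes that averaged 1 CPM or more and had a coding-style symbol and no overlap between groups; called members of 33 gene lists, or the 2 most abundant where none was called; and a fixed set of metal, p53, polyamine and lineage genes. From this pool the text gives those that stand for their group, and a few are not reported here. The members and lists were chosen with earlier results of these data known.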

Additional observations from a re-analysis of the deposited data

How the results depend on the processing

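For TEPA against untreated cells, the 155 calls became 374 in DESeq2, 86 with no filter on low counts, 0 in the fit of the 6 libraries alone, 247 in that fit with the replicate block, 1186 with GC trends removed, 1392 with both the block and GC trends removed, and 61 to 127 without 1 library. For TEPA with IFN against IFN, the 279 calls became 583 in DESeq2, 183 with no filter, 121 in its own libraries alone, 1831 with GC trends removed and 124 to 251 without 1 library. Same-numbered libraries of that comparison correlated at 0.0681, 0.538 and 0.559, against up to 0.131, 0.24 and -0.326 with another number. Pairing by number is therefore uncertain there too. With the replicate block there were 2777 calls in its own libraries, 428 in all 24, and 2030 with GC trends removed as well. For the difference between the TEPA effects, the 0 calls became 1 with the block in its own libraries, 2 with the block in all 24, 6 with GC trends removed and 16 with both, and stayed at 0 without any 1 library. For TEPA against DC, the 185 calls became 434 in DESeq2, 123 with no filter, 2 in its own libraries alone, 406 with the replicate block there, 287 with the block in all 24, 1378 with GC trends removed, 1549 with both, and 75 to 207 without 1 library. For copper, the 858 calls became 61 in its own libraries alone, 2547 with the replicate block there, 3122 with GC trends removed and 3347 with both. The 33 calls counted over all lists became 50 in DESeq2, 0 in the 6 libraries alone, 63 with the replicate block there, 104 with GC trends removed, 124 with both, and 21 to 31 without 1 library. The cause of these moves was not tested, beyond the fewer libraries that some fits hold.

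Of the 47 called genes named, DESeq2 and limma-voom each kept 46, and edgeR with DESeq2 size factors kept 47. The fit with no filter kept 37, GC trends removed 45, and leaving out 1 library 28 to 36. In the fit of the 6 libraries alone without the block, 0 of the 46 tested there kept their call. None changed direction in these fits. With the replicate block in the 6 libraries, 39 of the 46 tested there kept their call (MT1F was not tested), the 7 losses being named beside their results, and in all 24 libraries the block changed no call of them. The fold change of CCS ran from -0.397 to 1.07 and that of SOD1 from -0.103 to 0.045 without 1 library, both changing sign without TEPA library 2. The median of the metallothionein list is not given, because MT1E and MT1M had at most 1 count in the 6 libraries. Depth limits the metallothioneins, which had 0 to 12 counts in each of the 6 libraries.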
